A study of Mus musculus with 4 samples.

Results

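The nuclear-encoded subunits of the mouse oxidative phosphorylation system were followed gene by gene in squamous cell carcinoma stem cells sorted by a fluorescent TGF-beta reporter. Members were taken by symbol: Nduf followed by a letter a, b, c, s or v and a digit (complex I), Sdha to Sdhd (complex II), Uqcr (complex III), Cox4 to Cox8 (complex IV) and Atp5 (complex V), without pseudogene symbols. The files held 88 gene identifiers under 87 such symbols, out of 29810 named genes. Of these, 80 reached 1 FPKM (a fragment count divided by transcript length and by sequencing depth) in at least 2 libraries and entered the test, among 10827 genes tested. Complex I contributed 39 of 40 members to the test, complex II 4 of 4, complex III 8 of 8, complex IV 12 of 18 and complex V 17 of 18. Cox4i1 was not analysed here.

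The study has 4 messenger RNA libraries. The mCherry Pos fraction (reporter on, labelled as having TGF-beta signaling) and the mCherry Neg fraction (reporter off, labelled as lacking it) were each sequenced in experiment 1 and in experiment 2, which gives 2 libraries per fraction. All 4 came from primary skin tumours of epidermal origin on a C57BL/6 X FBV background. The genotype is labelled TetO-Hras + LV-rtTA3-TGF-beta reporter in all of them. It combines an Hras transgene under a tetracycline-responsive promoter with a lentivirus that carries rtTA3, the transactivator of that promoter, and the reporter. The promoter of rtTA3 is not in the labels. Cells were depleted of lineage-positive cells and selected on integrin alpha6 and CD44 before the mCherry split, so the fractions share the tumour genotype and this selection. How many animals stood behind a library, and whether experiments 1 and 2 used different ones, is not in the labels. The p-values thus reflect the variation among 4 libraries, which may be technical. Coverage in the files corresponded to 3.14 to 3.75 gigabases of aligned sequence per library, and the distance from the centre of a member transcript's deposited interval to its bounds was, in the median, 5.57% to 6.37% of the FPKM, which covers counting error only.

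As background, oxidative phosphorylation runs on 5 membrane complexes of the inner mitochondrial membrane. Complexes I and II pass electrons from NADH and succinate to ubiquinone, complex III hands them to cytochrome c, complex IV gives them to oxygen, and complex V, the ATP synthase, uses the proton gradient that complexes I, III and IV build. All except complex II also contain subunits encoded by mitochondrial DNA, and succinate dehydrogenase (complex II) is at the same time an enzyme of the tricarboxylic acid cycle. In skin tumours as in other tissues, subunit RNA levels describe transcripts and not assembled complexes or respiration. In bulk libraries such as these, fewer cells of a type and less RNA per cell cannot be told apart.

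Levels spread widely among the subunits. By mean FPKM over the 4 libraries, which is scaled to transcript length, 49 of the 80 genes tested lay at 100 or above and 31 below. The highest means were those of Ndufa4 at 790 FPKM, Atp5b at 774 FPKM, Atp5g3 at 712 FPKM, Atp5e at 547 FPKM and Atp5mpl at 517 FPKM. Atp5b encodes the catalytic beta subunit of the ATP synthase, and Atp5g3 is a gene for the membrane c subunit. The medians of gene means were 99.3 FPKM in complex I, 72.3 FPKM in complex II, 251 FPKM in complex III, 217 FPKM in complex IV and 209.8 FPKM in complex V. Ndufa4 and Atp5b lay close together, with Ndufa4 at 955 and 829 FPKM in the mCherry Pos libraries of experiments 1 and 2 and 818 and 560 FPKM in the mCherry Neg libraries, and Atp5b at 751 and 749 FPKM in mCherry Pos and 719 and 875 FPKM in mCherry Neg. Their order differed between libraries, so these neighbours do not differ beyond their spread.

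**Figure D1:**
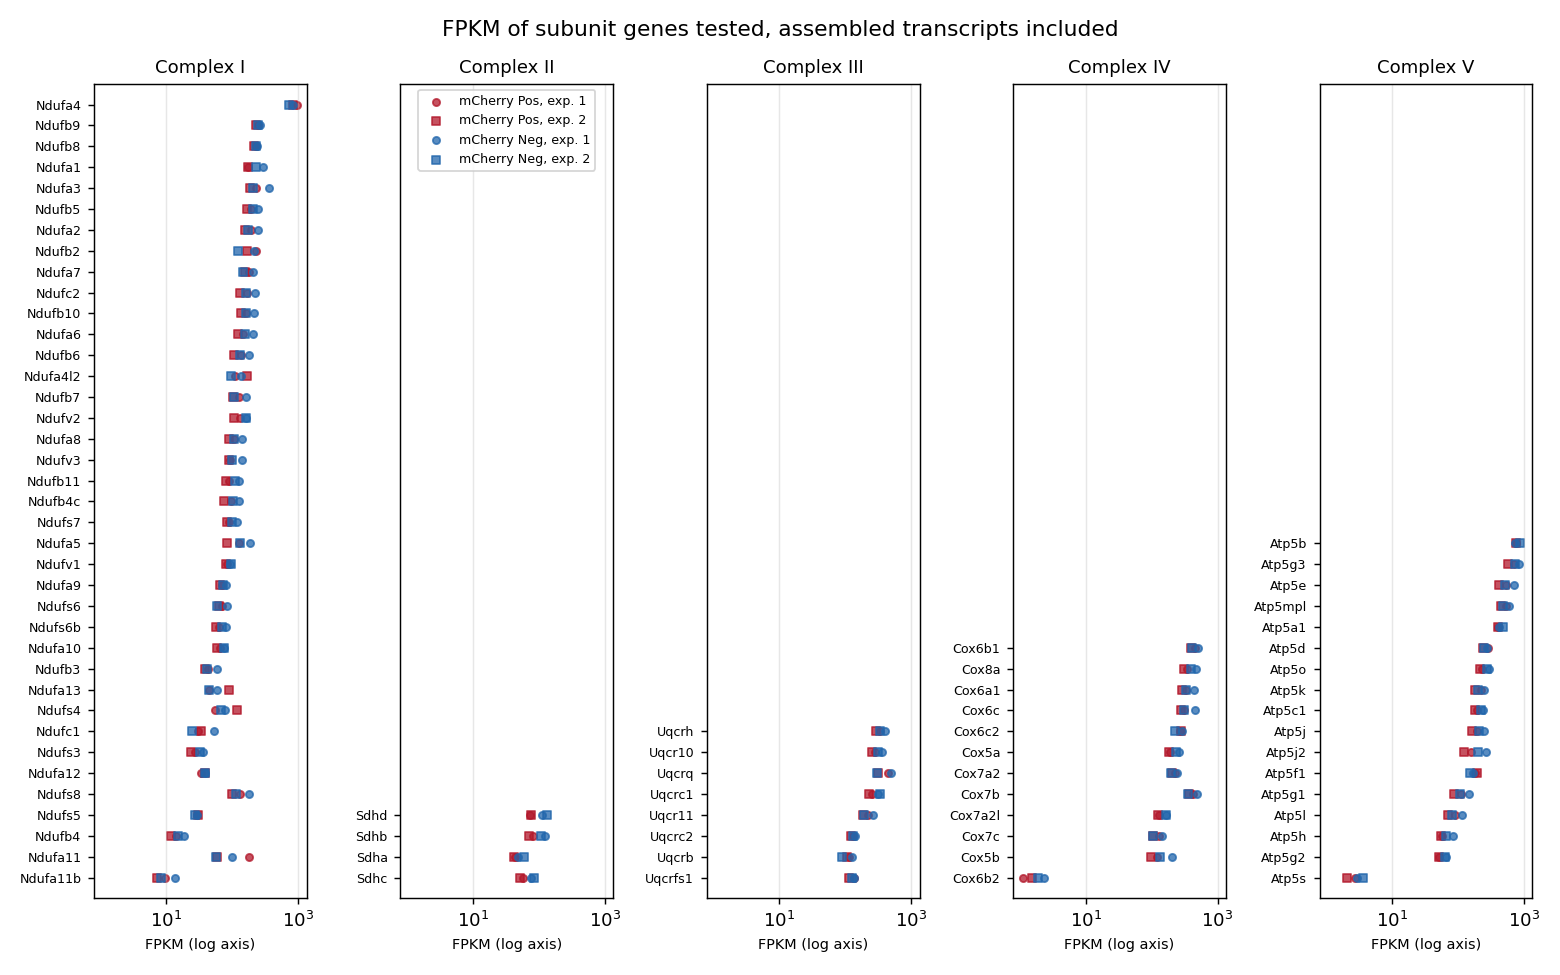
FPKM (log axis) of the subunit genes tested, without 1 gene that is not reported, by complex, in each of the 4 libraries, with assembled transcripts included in the sums. Points are single libraries, red for mCherry Pos and blue for mCherry Neg, circles for experiment 1 and squares for experiment 2. For most genes the 4 libraries lie close together beside the range between genes, and Ndufa4 and Atp5b sit at the top.

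Several tissue-restricted isoforms were listed at or near 0. Cox6a2, Cox7b2, Cox8b and Cox8c were listed at 0 in every library. Cox7a1, the isoform of heart and skeletal muscle, had 0 and 0.93 FPKM in mCherry Pos against 0.33 and 0.14 FPKM in mCherry Neg, and Cox4i2, a hypoxia-responsive isoform found in lung, stayed at or under 0.24 FPKM. The widely expressed isoform Cox6a1 had 330 and 288 FPKM in mCherry Pos and 434 and 332 FPKM in mCherry Neg, and Cox8a had 346 and 307 FPKM in mCherry Pos and 475 and 389 FPKM in mCherry Neg. Ndufs1, the largest subunit of complex I, was listed at 0 in all 4 libraries although 1 library marked a transcript of it as fully supported by reads. Tpi1, a glycolytic enzyme that every cell uses, was likewise listed at 0 throughout by reference transcripts and reached 347 to 438 FPKM with assembled ones. Unlike Tpi1, the genes Ndufs1, Cox6a2, Cox7b2, Cox8b and Cox8c stayed at 0 in all 4 libraries with assembled transcripts too. A listed 0 is still not read as absence or low expression here, for the isoforms as for Ndufs1. A second identifier of Atp5o was also listed at 0 throughout.

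How a gene was summed mattered for 22 of the 80 genes. The files list Ensembl reference transcripts beside transcripts assembled from the reads of each library separately. The main sums held only reference transcripts that could be given a gene name. Of 96734 reference transcripts, 10694 could not. A second sum, called below the sum with assembled transcripts, added each transcript without a gene name, whether assembled or reference. The gene was the one that held at least 50% of its length in exons of its strand. A transcript without a strand was matched on both strands. For 58 members both sums were the same. Uqcrfs1, the Rieske iron-sulfur protein of complex III, shows the difference. Its reference transcript had 0 and 114 FPKM in mCherry Pos and 61.7 and 54.4 FPKM in mCherry Neg, whereas with assembled transcripts it had 134 and 114 FPKM in mCherry Pos and 138 and 126 FPKM in mCherry Neg. Ndufs8, an iron-sulfur subunit of complex I, had 44.0 and 13.6 FPKM in mCherry Pos and 47.8 and 0 FPKM in mCherry Neg by reference transcripts, and 130 and 100.3 FPKM in mCherry Pos and 177 and 113 FPKM in mCherry Neg with assembled ones. Both sums are therefore given for the genes described below where they part.

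No subunit passed the test between mCherry Pos and mCherry Neg in the main sums (limma on log2(FPKM + 1), Benjamini-Hochberg adjustment over all genes tested, threshold 0.05). Over all genes, 46 passed as higher in mCherry Pos (0.425%) and 37 as lower (0.342%). The lowest adjusted p of a member was 0.144, for Sdhd, and 7 members had an unadjusted p under 0.05, beside 1950 of the 10827 genes. With assembled transcripts added, 331 of 11835 genes passed as higher (2.8%) and 347 as lower (2.93%), and again no member did. In that fit 13 members had an unadjusted p under 0.05, beside 3086 of the 11835 genes. Median-of-ratios scaling of these fuller sums turned the split to 441 higher and 208 lower, with no member past the test. There 3 members had an unadjusted p under 0.05, beside 2834 of 11849 genes. A fit with the experiment number as a replicate block on these fuller sums was added after the data were seen. It gave 33 members an unadjusted p under 0.05, beside 3939 of 11835 genes. In that fit 5 members passed as lower in mCherry Pos and none as higher. Of all genes, 7.99% passed as lower and 4.76% as higher. The 5 were Sdhd, Sdhb, Atp5j2, Cox5b and Ndufa5, or 6.25% of the members, a share below that of all genes. In the block on reference transcripts alone no member passed, and 3 genes passed in all. An unadjusted p under 0.05 was found there for 20 members, beside 2117 of the 10827 genes. With any of the 4 libraries left out, no gene passed in the main sums (1032 to 2229 genes at an unadjusted p under 0.05).

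The direction of the subunits depended on what they were set against. In the values as deposited, 56 of 80 members (70%) were lower in mCherry Pos than in mCherry Neg in both experiments and 2 were higher in both, beside 48% and 20% of all genes. With assembled transcripts these counts were 61 lower and 4 higher, beside 54.5% and 20.7% of all genes. The 2 mCherry Pos values lay below both mCherry Neg values for 36 members (45%), beside 36.4% of all genes, and above both for 1 member, beside 14.7%; with assembled transcripts this held for 40 and 2 members, beside 43% and 15.3% of all genes. However, all genes leaned the same way: their median change was -0.16 (log2, mCherry Pos minus mCherry Neg) and that of the members was -0.28. Median-of-ratios scaling moved the median of all genes to 0.01 and that of the members to -0.09, and then 45 members lay lower and 35 higher, against 68 lower and 12 higher as deposited. The scaling raised the log2 change of single members by 0.20 in the median (0.10 to 0.20; 0.22 with assembled transcripts), so changes given below as deposited are larger, where negative, than after scaling. Median changes of all members and of the complexes are therefore given below relative to the median of all genes. Those of marker and related gene lists are given as deposited, to be read beside the -0.16 of all genes.

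Relative to all genes, the median subunit was lower in mCherry Pos in experiment 1 and not in experiment 2. The members' median minus that of all genes was -0.24 in experiment 1 and 0.03 in experiment 2 (-0.22 and 0.02 with assembled transcripts). In experiment 1, 68 of 80 members lay below the median change of all genes, and in experiment 2 this held for 36 (61 and 37 with assembled transcripts). In both experiments, 33 members lay below that median and 9 above it, beside 33.3% of all genes either way. With assembled transcripts 34 lay below and 16 above in both, beside 36.7% of all genes either way. Complex II differed from this pattern in sign: its median relative to all genes was -0.40 in experiment 1 and -0.31 in experiment 2, and -0.37 and -0.40 with assembled transcripts. Complexes I, III and IV lay below the median of all genes in experiment 1 (-0.25, -0.17 and -0.30) and above it in experiment 2 (0.04, 0.14 and 0.17), and complex V lay at -0.19 and -0.02. Whether complex II differs from the other complexes was not tested, since subunits are not replicates.

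**Figure D2:**
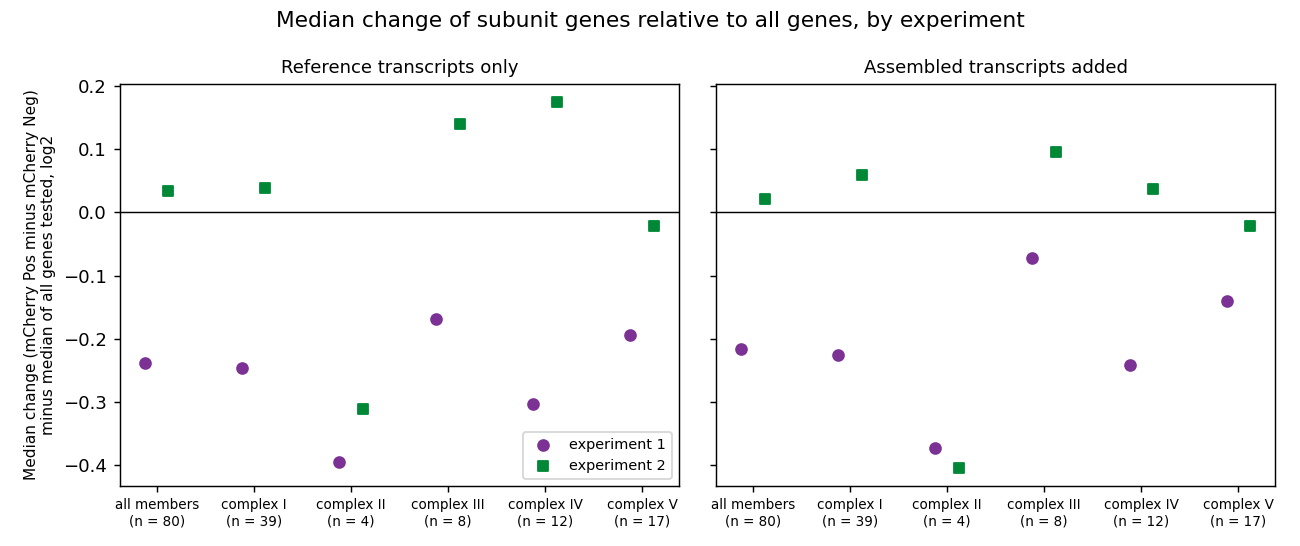
Median change of the subunit genes (mCherry Pos minus mCherry Neg, log2 of FPKM + 1) minus the median of all genes tested, for all members and by complex, in experiment 1 (circles) and experiment 2 (squares). Complex II is the group that lies at -0.31 or below in both experiments with either sum, while complexes I, III and IV change sign between experiments.

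A single library weighed on these medians. Without the mCherry Neg library of experiment 1, the members' median relative to all genes was 0.13, and without the mCherry Neg library of experiment 2 it was -0.33. Without the mCherry Pos library of experiment 1 it was -0.18, and without that of experiment 2 it was -0.02. By complex, without the mCherry Neg library of experiment 1, the values were 0.13 for complex I, -0.24 for complex II, 0.11 for complex III, 0.19 for complex IV and 0.06 for complex V. Summed FPKM of complex I was 5227 and 4613 in mCherry Pos and 6154 and 4832 in mCherry Neg with assembled transcripts. The mCherry Neg library of experiment 1 was thus the highest of the 4 for complex I, and it was also the highest for complexes III, IV and V. Complex II was the exception, at 256 and 240.4 FPKM in mCherry Pos and 361 and 387 FPKM in mCherry Neg.

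The subunits also differed between the experiments. In both fractions 59 of the 80 members (73.8%) were higher in experiment 1 than in experiment 2, beside 24.6% of all genes. The median difference of the members, experiment 1 minus experiment 2, was 0.17 in mCherry Pos and 0.31 in mCherry Neg, against -0.01 and -0.14 for all genes. Cytosolic ribosomal proteins, whose transcripts are also short and abundant, had a summed FPKM of 50342 and 43245 in mCherry Pos and 55441 and 43960 in mCherry Neg, so they too were highest in the mCherry Neg library of experiment 1. The most abundant transcript of a member had a median exonic length of 681.5 bases, against 2238 bases over all genes. The part of transcript length in the difference between experiments was not tested.

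**Figure D3:**
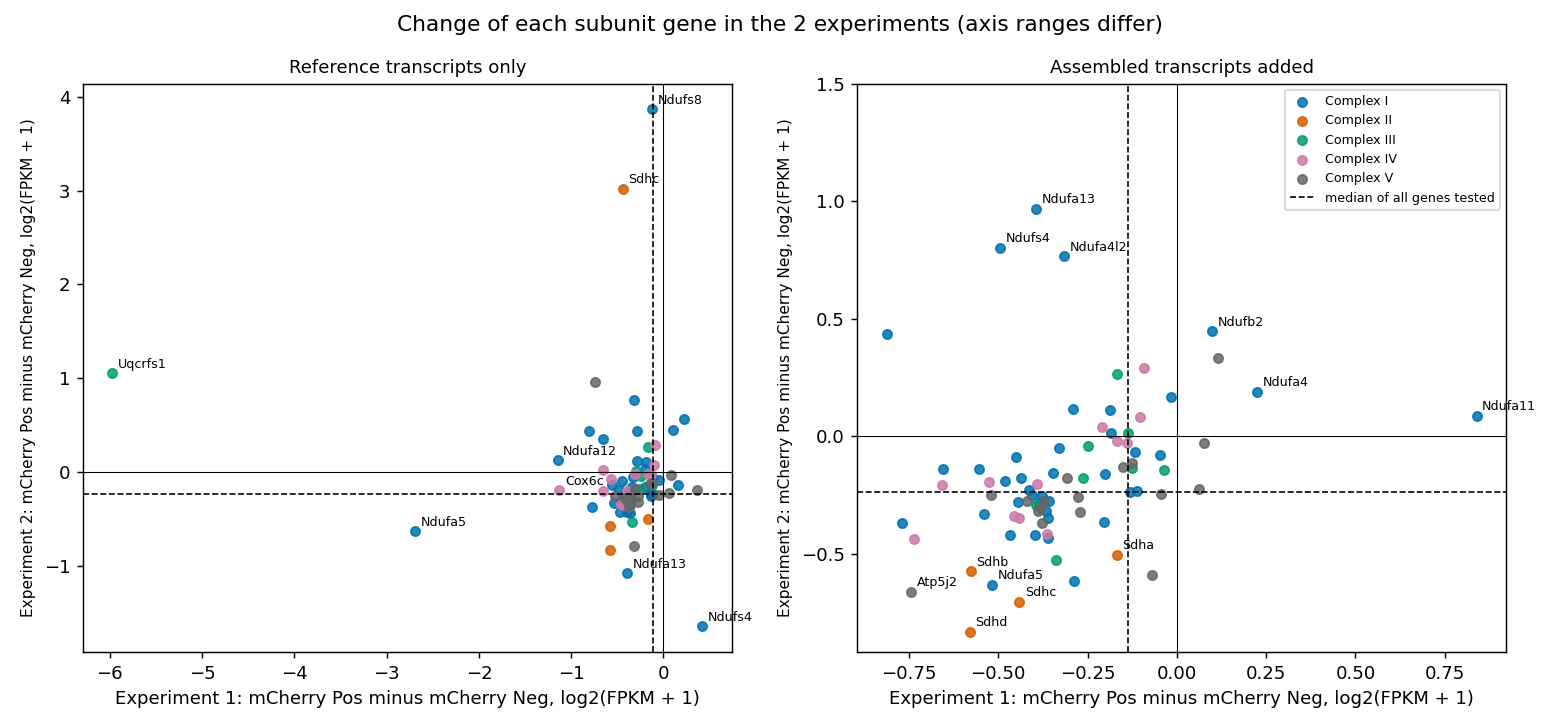
Change of each of the 80 subunit genes (mCherry Pos minus mCherry Neg, log2 of FPKM + 1) in experiment 1 (x axis) and experiment 2 (y axis), with reference transcripts only (left) and assembled transcripts added (right; axis ranges differ). Dashed lines are the medians of all genes tested. The far points on the left, Uqcrfs1, Ndufs8, Sdhc and Ndufa5, move in among the others on the right, where the 4 Sdh genes lie at the lower left.

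Marker genes of keratinocytes and of other cell types were read beside these values. The 9 keratinocyte markers included 6 with a row, and these had a median change of -0.78 (4 lower and 2 higher in mCherry Pos in both experiments); Krt5, Krt14 and Krt15 were not analysed here. The 6 genes summed to 508 and 556 FPKM in mCherry Pos and 833 and 1197 FPKM in mCherry Neg, and with assembled transcripts to 674 and 706 FPKM in mCherry Pos and 1351 and 1565 FPKM in mCherry Neg, with 5 lower and 1 higher in both experiments. Of all genes, 48% were lower and 20% higher in both experiments by reference transcripts, and 54.5% and 20.7% with assembled ones. By reference transcripts the changes of the 6 keratinocyte genes ran from -1.45 to 0.52. Both mCherry Pos values lay below both mCherry Neg values for 4 of the 6 genes, beside 36.4% of all genes. They lay above both for 1, beside 14.7% of all genes. Among the lower ones, Trp63, a basal epithelial factor, had 72.1 and 64.0 FPKM in mCherry Pos and 102 and 128 FPKM in mCherry Neg. Itga6, whose protein was used in the sort, had 181 and 169 FPKM in mCherry Pos and 331 and 410.4 FPKM in mCherry Neg. The 8 fibroblast markers summed to 8.6 and 25.1 FPKM in mCherry Pos and 96.7 and 209 FPKM in mCherry Neg (17.6 and 38.7 FPKM in mCherry Pos and 117 and 233 FPKM in mCherry Neg with assembled transcripts). Most of the reference-transcript sum in mCherry Neg was Postn, at 4.78 and 10.99 FPKM in mCherry Pos and 89.7 and 191 FPKM in mCherry Neg. The collagen gene Col1a2 was listed at 0 in all 4 libraries by reference transcripts, which is not read as absence. Col1a1 had 0 and 3.96 FPKM in mCherry Pos and 0 and 7.29 FPKM in mCherry Neg. Of 5 fibroblast markers tested by reference transcripts, 2 were lower in mCherry Pos in both experiments, beside 48% of all genes. With assembled transcripts 4 of 6 were, beside 54.5% of all genes. No fibroblast marker tested was higher in both experiments with either sum. The 6 endothelial markers summed, by reference transcripts, to 8.7 FPKM or less and the 8 leukocyte markers to 11.5 FPKM or less. The skeletal muscle markers (7 of 8 with a row) summed to 4.7 FPKM or less by reference transcripts. With assembled transcripts the highest sums were 15.4 FPKM (endothelial), 13.2 FPKM (leukocyte) and 4.8 FPKM (skeletal muscle). The 5 adipocyte markers summed to under 0.1 FPKM, with Adipoq, Plin1 and others at or near 0. In the fit with assembled transcripts, where no subunit passed, Col17a1 of the keratinocyte list (change -1.55, SE 0.15; limma adjusted p = 0.0154) and Postn of the fibroblast list (change -3.99, SE 0.50; limma adjusted p = 0.0255) passed as lower in mCherry Pos. The part of other cells in the subunit values was not tested.

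Complex II, succinate dehydrogenase, was lower in mCherry Pos in both experiments for all 4 subunits once assembled transcripts were counted, and no values of the fractions overlapped, which with these sums also held for 43% of all genes. Sdha and Sdhb carry the flavin and the iron-sulfur centres of the catalytic head, and Sdhc and Sdhd anchor the head in the membrane and bind ubiquinone. The genes lie apart in the genome (mm9): Sdha at chr13:74459702-74487728, Sdhb at chr4:140517118-140535108, Sdhc at chr1:173057296-173080734 and Sdhd at chr9:50404443-50411954. Sdhd had 74.5 and 75.1 FPKM in mCherry Pos and 112 and 134 FPKM in mCherry Neg. Both mCherry Pos values lay well under both mCherry Neg values, at 0.666 of the mCherry Neg level in experiment 1 and 0.558 in experiment 2. The change of Sdhd was -0.71 (SE 0.15; limma adjusted p = 0.144 with reference transcripts, 0.0666 with assembled transcripts, 0.0319 with assembled transcripts and the replicate block), or -0.51 after median-of-ratios scaling.

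Sdhb had 82.0 and 72.1 FPKM in mCherry Pos and 123 and 108 FPKM in mCherry Neg. The ratio of mCherry Pos to mCherry Neg was 0.668 in both experiments. Its change was -0.58 (SE 0.15; limma adjusted p = 0.189, 0.0945 with assembled transcripts and 0.0375 with the replicate block added), or -0.38 after median-of-ratios scaling. Sdha had 43.1 and 42.0 FPKM in mCherry Pos and 48.6 and 60.0 FPKM in mCherry Neg, a smaller distance, mainly from experiment 2, and its change of -0.34 (SE 0.16) passed in none of these fits and was -0.14 after median-of-ratios scaling. Sdhc had 56.7 and 51.3 FPKM in mCherry Pos and 77.4 and 5.45 FPKM in mCherry Neg by reference transcripts, and the last value became 84.2 FPKM with assembled transcripts. Its change was therefore 1.29 (SE 1.26) with the first sum and -0.57 (SE 0.14; limma adjusted p = 0.0840) with the second, and it was -0.51 without the mCherry Neg library of experiment 2 and -0.36 after scaling of the second sum.

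**Figure D4:**
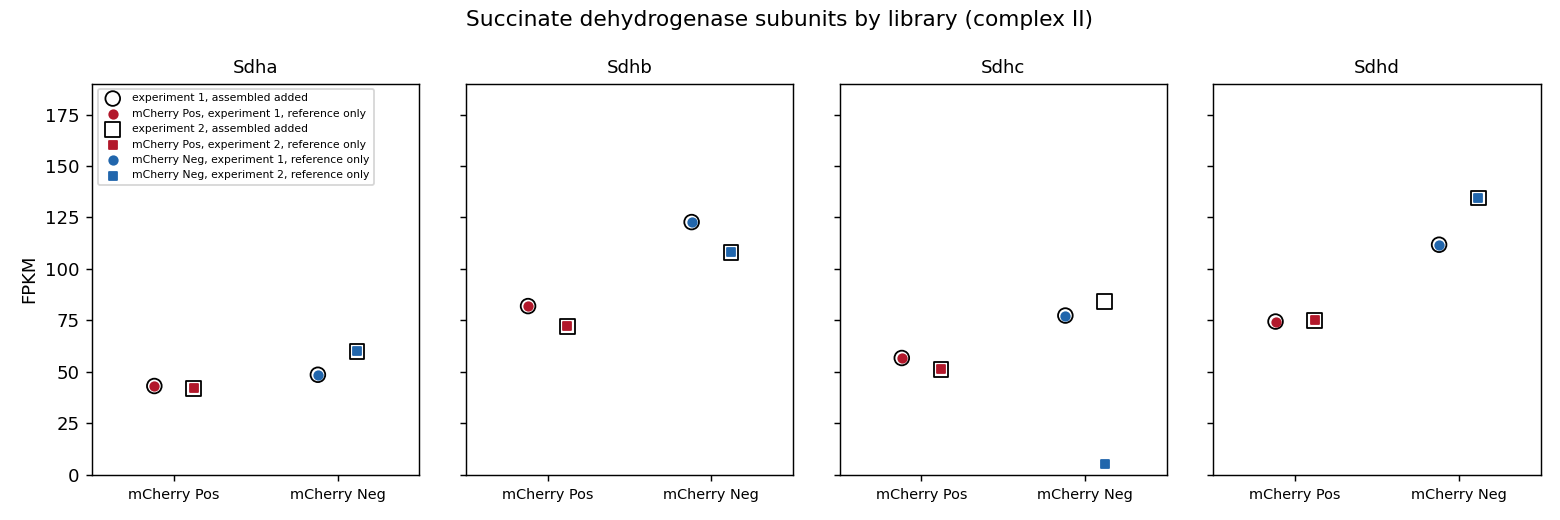
FPKM of the 4 succinate dehydrogenase genes in each library, mCherry Pos left and mCherry Neg right, circles for experiment 1 and squares for experiment 2. Filled symbols are reference transcripts only and open symbols have assembled transcripts added; the sums part at Sdhc in the mCherry Neg library of experiment 2 (5.45 against 84.2 FPKM), and elsewhere mCherry Pos lies below mCherry Neg.

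The sequence just upstream of these genes is shown because Sdhb and Sdhd are among the members whose values did not overlap between fractions. By reference transcripts 36 of 80 members lay apart as lower in mCherry Pos (45%), beside 36.4% of all genes, so this does not single them out. The 250 bases before the annotated start are shown 5' to 3' on the gene's strand (RefSeq, GRCm38.p6), at chr13:74350241-74350490 for Sdha (minus strand), chr4:140961021-140961270 for Sdhb (plus strand) and chr9:50603850-50604099 for Sdhd (minus strand). Capitals mark matches on either strand to GCGC, any base, T and GCGC in a row, a form of the element of nuclear respiratory factor 1. They also mark CCGGAAG, a form of the element of ETS factors such as GABP, and AAGATGGC, a form of the YY1 element. Other forms of these elements were not searched. No window for Sdhc was searched.
Sdha: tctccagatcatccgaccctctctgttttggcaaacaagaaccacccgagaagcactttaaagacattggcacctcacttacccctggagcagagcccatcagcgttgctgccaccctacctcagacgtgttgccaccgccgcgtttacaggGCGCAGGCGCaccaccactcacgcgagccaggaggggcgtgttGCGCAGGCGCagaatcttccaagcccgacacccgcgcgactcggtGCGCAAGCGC
Sdhb: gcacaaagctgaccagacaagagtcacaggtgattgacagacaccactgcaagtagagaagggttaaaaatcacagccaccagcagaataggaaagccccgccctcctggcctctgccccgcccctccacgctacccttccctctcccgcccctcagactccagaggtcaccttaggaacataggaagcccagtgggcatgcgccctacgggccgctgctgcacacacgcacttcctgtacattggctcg
Sdhd: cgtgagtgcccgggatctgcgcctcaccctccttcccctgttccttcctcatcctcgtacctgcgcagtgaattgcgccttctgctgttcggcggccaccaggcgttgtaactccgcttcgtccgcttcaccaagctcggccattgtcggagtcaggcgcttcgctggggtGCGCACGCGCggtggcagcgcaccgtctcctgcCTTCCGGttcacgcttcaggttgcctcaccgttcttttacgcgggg
Sdha held 3 matches to the first element and none to the others, and Sdhd held 1 to the first and 1 to the ETS form. Sdhb held no match to these letters. The letters of the different elements did not overlap. The same windows were found for 65 member genes, in 70 windows. Of these, 20% held the first element, 17.1% the ETS form and 1.43% the YY1 form, beside 3.74%, 6.91% and 1.56% of all 32851 windows. The 32851 windows were not limited to genes tested. A match describes letters only.

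Complex I, with 39 genes, showed a median relative to all genes of -0.11 in the pooled fit (-0.10 with assembled transcripts) and no member that passed. Among its core subunits, Ndufv1, which binds NADH and flavin, had 83.3 and 80.0 FPKM in mCherry Pos and 91.4 and 94.5 FPKM in mCherry Neg. The groups did not overlap, by a small margin, and the change of -0.19 (SE 0.13) turned to 0.01 after median-of-ratios scaling. Ndufa1, an accessory subunit needed for assembly, had 171 and 175 FPKM in mCherry Pos and 293 and 227 FPKM in mCherry Neg, a change of -0.57 (SE 0.18; limma adjusted p = 0.235).

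Ndufa4 was the single member whose reference-transcript values were higher in both mCherry Pos libraries than in both mCherry Neg libraries. Its protein was first assigned to complex I and is now placed with complex IV. With the values given above its change was 0.39 (SE 0.25; limma adjusted p = 0.481), or 0.59 after median-of-ratios scaling. An assembled transcript raised the lowest mCherry Neg value to 727 FPKM, and the change was then 0.21 (SE 0.18), with the groups still apart. Its paralog Ndufa4l2, a hypoxia-induced gene, had 109 and 165 FPKM in mCherry Pos and 136 and 96.7 FPKM in mCherry Neg. It was lower in mCherry Pos in experiment 1 and higher in experiment 2, so the change of 0.23 (SE 0.29) has no common direction.

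Some accessory subunits with assembled transcripts moved between sums. Ndufa5 had 19.5 and 84.0 FPKM in mCherry Pos and 131 and 131 FPKM in mCherry Neg by reference transcripts, and 128 and 84.0 FPKM in mCherry Pos and 184 and 131 FPKM in mCherry Neg with assembled ones. The groups stayed apart, and the change was -1.66 (SE 0.72) with the first sum and -0.58 (SE 0.28; limma adjusted p = 0.263, and 0.0381 with the replicate block) with the second. Ndufa13, also known as Grim19, had 43.8 and 20.4 FPKM in mCherry Pos and 57.9 and 44.2 FPKM in mCherry Neg, and the mCherry Pos library of experiment 2 rose to 87.4 FPKM with an assembled transcript. Its change was -0.74 (SE 0.41) with the first sum and 0.29 (SE 0.36) with the second. The core subunit Ndufs8 had a change of 1.87 (SE 2.03) with the first sum and -0.31 (SE 0.27) with the second.

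Ndufs6 and Ndufs6b, Ndufb4 and Ndufb4c, and Ndufa11 and Ndufa11b are pairs of similar name whose sequences were not compared. Whether the counting split reads within a pair was not tested, so their separate values are uncertain. Ndufb4c had 95.0 and 75.4 FPKM in mCherry Pos and 125 and 101 FPKM in mCherry Neg, against 14.1 and 11.8 FPKM in mCherry Pos and 18.3 and 15.2 FPKM in mCherry Neg for Ndufb4. Both genes were lower in mCherry Pos in both experiments. Ndufa11 had 11.3 and 9.2 FPKM in mCherry Pos and 15.3 and 12.1 FPKM in mCherry Neg by reference transcripts, but 178 and 59.3 FPKM in mCherry Pos and 99.0 and 55.8 FPKM in mCherry Neg with assembled ones.

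Complex III, with 8 genes, lay closest to all genes. Its median relative to all genes was -0.02, and it was 0.04 with assembled transcripts. Uqcrc1, a core subunit, was lower in mCherry Pos, with 251 and 233 FPKM in mCherry Pos and 317 and 337 FPKM in mCherry Neg. The groups did not overlap, and the change was -0.43 (SE 0.14; limma adjusted p = 0.237), or -0.24 after median-of-ratios scaling. Uqcrc2, its partner core subunit, had 130 and 121 FPKM in mCherry Pos and 142 and 134 FPKM in mCherry Neg, a change of -0.13 (SE 0.13). Uqcrb, which lines the ubiquinone-binding region, had 113 and 106 FPKM in mCherry Pos and 127 and 88.3 FPKM in mCherry Neg, with overlap. The change of Uqcrfs1 was -2.46 (SE 2.38) with reference transcripts, which include the listed 0, and -0.09 (SE 0.15) with assembled ones.

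Complex IV, cytochrome c oxidase, had 12 tested genes and a median of -0.15 relative to all genes with either sum. Cox5a, a subunit next to the catalytic core, had 191 and 184 FPKM in mCherry Pos and 259.9 and 235 FPKM in mCherry Neg. All mCherry Pos values lay below all mCherry Neg values, with a change of -0.40 (SE 0.14; limma adjusted p = 0.261). For Cox8a, given above, the change was -0.40 (SE 0.18), and for Cox6a1 it was -0.30 (SE 0.20). After median-of-ratios scaling these changes were -0.20 for Cox5a, -0.20 for Cox8a and -0.10 for Cox6a1. Cox7a2, the widely expressed partner of Cox7a1, had 225 and 206 FPKM in mCherry Pos and 242 and 195 FPKM in mCherry Neg, which overlapped. Cox5b, a zinc-binding subunit, had 43.1 and 37.1 FPKM in mCherry Pos and 53.8 and 37.8 FPKM in mCherry Neg by reference transcripts, and 121 and 98.6 FPKM in mCherry Pos and 202 and 134 FPKM in mCherry Neg with assembled ones. Its change was -0.17 (SE 0.23) with the first sum and -0.59 (SE 0.24; limma adjusted p = 0.214, and 0.0487 with the replicate block) with the second.

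Cox7a2l, a factor of respiratory supercomplexes, had 104 and 124 FPKM in mCherry Pos and 165 and 121 FPKM in mCherry Neg by reference transcripts. The groups overlapped there and parted with assembled transcripts, at 128 and 124 FPKM in mCherry Pos and 165 and 166 FPKM in mCherry Neg (change -0.39, SE 0.13; limma adjusted p = 0.141). Cox6c and Cox6c2 are another pair of similar name whose sequences were not compared. By reference transcripts Cox6c had 204 and 275 FPKM in mCherry Pos and 447 and 315 FPKM in mCherry Neg. Cox6c2 had 274 and 279 FPKM in mCherry Pos and 292 and 228 FPKM in mCherry Neg. Whether reads were split between them was not tested, so their changes, -0.66 (SE 0.26) and 0.10 (SE 0.18), are uncertain. Cox6b2, a testis isoform, stayed at or under 2.34 FPKM in every library.

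Complex V, the ATP synthase, had 17 tested genes and a median of -0.11 relative to all genes. The catalytic genes differed little between fractions. Atp5a1, for the alpha subunit, had 399 and 408 FPKM in mCherry Pos and 412 and 484 FPKM in mCherry Neg. Its change of -0.15 (SE 0.16) and that of Atp5b, -0.08 (SE 0.18), turned to 0.05 and 0.12 after median-of-ratios scaling. The c subunit comes from 3 genes with the same mature protein. Atp5g3 had 700.1 and 579 FPKM in mCherry Pos and 846 and 724 FPKM in mCherry Neg, Atp5g1 had 113 and 87.3 FPKM in mCherry Pos and 146 and 106 FPKM in mCherry Neg, and Atp5g2 had 50.8 and 51.6 FPKM in mCherry Pos and 66.6 and 64.1 FPKM in mCherry Neg. Atp5g3 made up 81.1% and 80.6% of their summed FPKM in mCherry Pos and 79.9% and 81.0% in mCherry Neg, so the mixture hardly moved while the sum was lowest in the mCherry Pos library of experiment 2.

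Some genes of complex V again depended on which transcripts were summed. Atp5j2, the f subunit of the membrane part, had 157 and 125 FPKM in mCherry Pos and 264 and 63.8 FPKM in mCherry Neg by reference transcripts, and the last value became 199 FPKM with an assembled transcript. Its change was 0.11 (SE 0.72) with the first sum and -0.70 (SE 0.21; limma adjusted p = 0.123, and 0.0239 with the replicate block) with the second. Atp5f1, the b subunit of the stator stalk, had 105 and 88.0 FPKM in mCherry Pos and 130 and 152 FPKM in mCherry Neg by reference transcripts, and 181 and 192 FPKM in mCherry Pos and 167 and 152 FPKM in mCherry Neg with assembled ones. The groups were apart with both sums and in opposite order, and the change was -0.55 (SE 0.17) and 0.23 (SE 0.14). Atp5h, the d subunit of the same stalk, had no assembled transcript and had 57.3 and 55.4 FPKM in mCherry Pos and 82.7 and 66.1 FPKM in mCherry Neg, a change of -0.39 (SE 0.17). Atp5s, named as coupling factor B, had 2.74 and 2.10 FPKM in mCherry Pos and 1.90 and 2.54 FPKM in mCherry Neg, and its change of 0.09 (SE 0.26) was -0.33 (SE 0.22) with assembled transcripts.

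Related lists were read beside the subunits by counts and medians, with no gene past the test in any of the following with reference transcripts. The 42 tested assembly factors had a median change of -0.24, and 25 were lower and 2 higher in mCherry Pos in both experiments, beside 48% and 20% of all genes. With assembled transcripts their median was -0.11, and 23 were lower and 2 higher, beside 54.5% and 20.7% of all genes. The 5 respiratory proteins outside the symbol rule (Cyc1, Cycs, Ndufab1, Atpif1 and Usmg5) had a median of -0.31, and all 5 were lower in both experiments; with assembled transcripts the median was -0.15 and 4 were lower. Mitochondrial ribosomal proteins, which translate the mitochondrially encoded subunits, had a median of -0.20 over 72 genes (-0.17 over 74 with assembled transcripts), and cytosolic ones -0.09 over 85 genes (-0.07 over 87). Enzymes of the tricarboxylic acid cycle and pyruvate dehydrogenase had -0.22 over 16 genes (-0.23 over 18), and carriers and channels had -0.16 over 7 genes with either sum. The median of all genes was -0.16, and -0.18 with assembled transcripts. Mitochondrially encoded subunits were not analysed here.

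Regulators of mitochondrial gene expression had a median of -0.16 over 11 genes. Of these, 5 were lower in both experiments, beside 48% of all genes. With assembled transcripts the median was -0.37 over 12 genes, of which 8 were lower in both, beside 54.5% of all genes. Polrmt, the mitochondrial RNA polymerase, had 4.06 and 4.01 FPKM in mCherry Pos and 10.6 and 8.4 FPKM in mCherry Neg, a change of -1.05 (SE 0.23; limma adjusted p = 0.143). Its values did not overlap between fractions. Ppargc1a, the coactivator PGC-1alpha, was at or under 0.08 FPKM in every library. Nrf1 itself had 11.1 and 13.0 FPKM in mCherry Pos and 11.6 and 15.7 FPKM in mCherry Neg, with overlap. These 3 genes were singled out after their values were seen.

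Among the related lists, glycolysis was the one with a median above 0, at 0.25 over 16 genes. Of these, 8 were higher and 5 lower in mCherry Pos in both experiments, beside 20% and 48% of all genes. Ldha, which reduces pyruvate to lactate, had 1104 and 1146 FPKM in mCherry Pos and 884 and 833 FPKM in mCherry Neg, a change of 0.39 (limma adjusted p = 0.315). Slc2a1, the glucose transporter GLUT1, lay in the opposite direction, with 262 and 284 FPKM in mCherry Pos and 441 and 375 FPKM in mCherry Neg (change -0.57; limma adjusted p = 0.202). Neither passed, and both were singled out after their values were seen. With assembled transcripts the list's median was 0.16 over 17 genes.

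**Figure D5:**
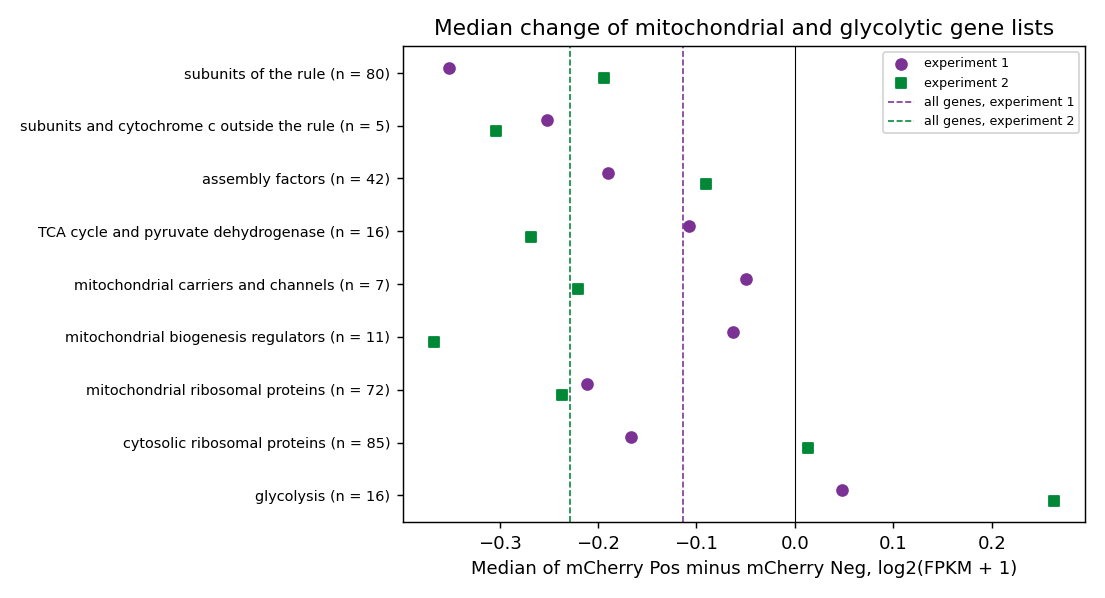
Median change (mCherry Pos minus mCherry Neg, log2 of FPKM + 1; reference transcripts) of the subunits and of 8 related gene lists in experiment 1 (circles) and experiment 2 (squares), with the number of genes tested. Dashed lines are the medians of all genes in each experiment, -0.11 and -0.23. The subunits lie farthest below the line of experiment 1, and glycolysis lies above both lines.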

How the data were processed

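Libraries were prepared with a TrueSeq mRNA kit from column-purified RNA, per the labels' protocols. The submitters' processing notes name TopHat, Cufflinks and mm9, without versions. The deposited tables hold, per transcript, an FPKM value with its interval and coverage, per the file headers. Depth in bases was recovered as coverage divided by FPKM, and read numbers are unknown.

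Transcripts of at least 200 exonic bases were summed per gene with Python 3.11.15 and pandas 2.3.3. Shorter ones, left out, carried 95.1% to 98.9% of all FPKM. Member transcripts were named by transcript identifier (GENCODE M21, names only) in 268 cases and by gene identifier in 2. The test on genes at 1 FPKM or more in at least 2 libraries used limma 3.58.1 and R 4.3.3 (lmFit, eBayes with a trend, two-sided) on log2(FPKM + 1), mCherry Pos minus mCherry Neg, so fold changes of low genes are understated. Exact permutation of 4 libraries in 2 groups gives no p below 0.333 and was not used. The titles number the experiment, which pairs the libraries: the difference between experiments correlated across genes between fractions at r = 0.19 with reference transcripts and 0.30 with assembled ones. Members and lists were chosen with earlier results of these data known. Named genes were the 2 largest rises and falls per complex, members listed at 0 in some libraries, and a list of core and isoform genes; others were singled out after their values were seen. The values of 1 tested member are not reported here. Promoter windows came from RefSeq.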

Additional observations from a re-analysis of the deposited data

How the results depend on the processing

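Of all genes, 83 passed in the main setting with limma. The count was 678 with assembled transcripts added, 1509 with the replicate block on those sums, 649 with median-of-ratios scaling of those sums, 3 with the replicate block on reference transcripts, 5 without a filter on low values, 40 at a minimum of 5 FPKM, 205 with genes listed at 0 left out, and 0 without any one of the 4 libraries (1032 to 2229 genes at an unadjusted p under 0.05, of them 2 to 15 members). The block and the scaling of the fuller sums were chosen after seeing the data. Members that passed numbered 0 higher and 0 lower in every setting tried except the replicate block on the fuller sums, where 5 were lower. Among the 5 were Sdhd at -0.71, Sdhb at -0.58 and Ndufa5 at -0.58. In that setting 33 members had an unadjusted p under 0.05, beside 3939 of 11835 genes.

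The members' median relative to all genes, -0.12, ran from -0.33 to 0.13 when 1 library was left out. The range was -0.36 to 0.13 for complex I, -0.42 to -0.24 for complex II, -0.23 to 0.11 for complex III, -0.35 to 0.19 for complex IV and -0.28 to 0.06 for complex V. Complex II was -0.39 with assembled transcripts, with and without the replicate block, -0.37 with these and median-of-ratios scaling, and -0.41 without a filter. Complex III was 0.04 with assembled transcripts, with and without the replicate block, 0.07 with these and scaling, 0.02 with genes listed at 0 left out and 0 (to 2 decimals) with scaling alone.

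Single genes changed sign as follows. With assembled transcripts, with or without the replicate block, Atp5f1 was 0.23, Atp5j2 -0.70, Atp5s -0.33, Ndufa13 0.29, Ndufs8 -0.31 and Sdhc -0.57. With median-of-ratios scaling of these sums, Atp5f1 was 0.44, Atp5j2 -0.49, Atp5s -0.17, Ndufa13 0.50, Ndufs8 -0.09, Sdhc -0.36, Uqcrfs1 0.13, Atp5a1 0.07, Atp5b 0.14, Cox7a2 0.21 and Ndufv1 0.03. With scaling of reference transcripts, Atp5a1 was 0.05, Atp5b 0.12, Cox7a2 0.19 and Ndufv1 0.01, and with quantile normalization Cox7a2 was 0.08. Atp5j2 was -0.10 by its most abundant transcript. With 1 library left out, the range was -0.22 to 0.06 for Atp5b, -0.91 to 1.12 for Atp5j2, -0.06 to 0.23 for Atp5s, -0.08 to 0.28 for Cox6c2, -0.16 to 0.14 for Cox7a2, -0.07 to 0.52 for Ndufa4l2, -0.93 to 4.68 for Ndufs8, -0.51 to 3.09 for Sdhc, -0.21 to 0.31 for Uqcrb and -5.88 to 0.97 for Uqcrfs1. Adding assembled transcripts changes which transcripts are summed for a gene and leaves the FPKM of each transcript as deposited. The cause of the shifts was not tested.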
